A study of Mus musculus with 2 samples.

Results

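Prb1, Prpmp5 and Prh1 are the 3 genes of the mouse proline-rich salivary proteins described here, chosen by symbol among the 48825 genes counted in each library. They were followed through the epithelial cells of the parotid gland in control and irradiated (IR) animals. Both groups were female C3H mice with no transgene. The IR mice received 6 Gy a day to the head and neck on 5 consecutive days, 30 Gy in total, at an age of 6 to 10 weeks, the control mice received none, and glands were taken 10 months later. Cells of 2 mice per condition were pooled during dissociation, with no means of telling the animals apart, and made 1 library each by the 10x method. With a single library on each side, differences between IR and control have no replicate check and no p-value is given.

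Proline-rich proteins are secreted by the serous acinar cells of the parotid, the cells that make the watery, enzyme-rich saliva. They coat the teeth, bind calcium and bind plant tannins from the diet, and in rodents a tannin-rich diet or stimulation of beta-adrenergic receptors is known to increase their synthesis many-fold. Prb1 belongs to the basic proline-rich proteins, Prpmp5 encodes the proline-rich protein MP5, and Prh1 belongs to the HaeIII subfamily, which is named after the restriction enzyme that cuts its repeats. Their genes stand in a cluster beside the bitter taste receptor genes.

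All 3 genes are on chromosome 6 (GRCm38, GENCODE M21). Prb1 (ENSMUSG00000067543.8) spans chr6:132206795-132210521 on the minus strand, Prpmp5 (ENSMUSG00000107874.1) spans chr6:132311590-132314757 on the minus strand, and Prh1 (ENSMUSG00000059934.12) spans chr6:132569809-132572941 on the plus strand. In each gene a single exon held most of the coding sequence, namely 93.4% of it in exon 3 of Prb1, 88.7% in exon 3 of Prpmp5 and 92.6% in exon 2 of Prh1. Codons for proline (CCN) made up 159 of 504 codons in Prb1 (31.5%), 83 of 296 in Prpmp5 (28.0%) and 127 of 289 in Prh1 (43.9%). These exons are built of repeats. Coding sequence matched itself best when shifted by 37 codons in Prb1 (63.1% of bases the same), by 18 codons in Prpmp5 (57.3%) and by 14 codons in Prh1 (84.6%). The repeat unit with the closest following copy is printed for each gene, 5′ to 3′ in the direction of the transcript, because it shows what makes the proteins rich in proline and why reads of the family resemble each other. Capitals mark the proline codons.
Prb1, exon 3, chr6:132208018-132208128, minus strand: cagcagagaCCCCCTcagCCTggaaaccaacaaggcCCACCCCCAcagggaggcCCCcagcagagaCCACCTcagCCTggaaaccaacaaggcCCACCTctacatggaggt
Prpmp5, exon 3, chr6:132312374-132312427, minus strand: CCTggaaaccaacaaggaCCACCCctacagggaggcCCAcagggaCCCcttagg
Prh1, exon 2, chr6:132571682-132571723, plus strand: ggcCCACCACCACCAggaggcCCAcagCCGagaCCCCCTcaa
The units of Prb1 and Prpmp5 share long runs, and the unit of Prh1 is of another kind, with 8 proline codons among its 14. The next copy in Prh1 had the same base at all 42 positions, against 102 of 111 in Prb1 and 48 of 54 in Prpmp5.

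The sequence before the transcription start grouped the genes in the same way. RefSeq promoter windows (GRCm38.p6) were found for all 3 members and for Gm8882 and Prp2, a pair of genes of the same cluster. The 96 bases placed by the last TATAAA before the start are printed for the members, because the genes that share them had very different counts. Capitals mark TATAAA.
Prb1, chr6:132210546-132210641, minus strand: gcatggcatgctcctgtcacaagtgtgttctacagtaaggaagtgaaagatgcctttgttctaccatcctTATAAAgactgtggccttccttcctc
Prpmp5, chr6:132314759-132314854, minus strand: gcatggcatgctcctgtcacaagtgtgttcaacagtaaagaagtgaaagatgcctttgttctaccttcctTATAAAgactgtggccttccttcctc
Prh1, chr6:132569708-132569803, plus strand: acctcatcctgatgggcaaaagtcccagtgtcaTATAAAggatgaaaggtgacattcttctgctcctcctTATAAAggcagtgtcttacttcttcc
Prb1 and Prpmp5 had the same base at 93 of 96 positions and differed by T31A, G39A and A66T, with Prb1 first and positions counted from 1 at the 5′ end. Gm8882 matched Prb1 at 94 positions. Prh1 and Prp2 were the same at all 96, while Prb1 and Prh1 matched at 40. TATAAA on either strand occurred in 13.6% of the 32851 promoter windows of RefSeq, GGAA, the core of the motif that Etv1 and other ETS factors bind, in 96.0%, and CANNTG, the E-box that Bhlha15 binds, in 72.3%. The 300-base windows of Prb1 and Prpmp5 held 5 GGAA each and that of Prh1 held 3, against a median of 3 over all windows. These matches describe the letters only.

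The control library had 3378 cells and the IR library 5286 after the filters of the study, and 12 barcodes occurred in both libraries, 3 of them as kept cells. Cells were clustered without the genes of this locus, so that no class name rested on the members. The acinar-like cluster (378 control and 367 IR cells) was high in 8 of 9 acinar markers, the Etv1+ cluster (249 and 243 cells) in 10 of 10 of its markers, the intercalated duct-like cluster (127 and 151 cells) in 6 of 6 and the striated duct-like cluster (90 and 78 cells) in 6 of 7. The myoepithelial-like group (18 and 25 cells) was high in 8 of 8 markers. The B cell-like cluster was high in 5 of 5 markers, and the T and NK cell-like clusters were joined. High is against all other kept cells together. Each cluster was picked by its level of markers from its own list, so these counts do not test the names. Lpo, the acinar marker left out of that choice, was the marker not high. Pip and Car6 stood at 29190.5 and 23031.6 CPM in control acinar cells and higher, at 31250.5 and 24890.3, in control Etv1+ cells. The median Etv1+ cell had 19493 UMIs (unique molecular identifiers, each standing for 1 captured RNA molecule) among control cells and 5067 among IR cells, while acinar cells had medians of 5434 and 5537. Levels are UMIs of a gene per 1e6 UMIs of the class (CPM). Intervals are exact 95% intervals for counting error only and leave out the spread between mice.

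**Figure D1:**
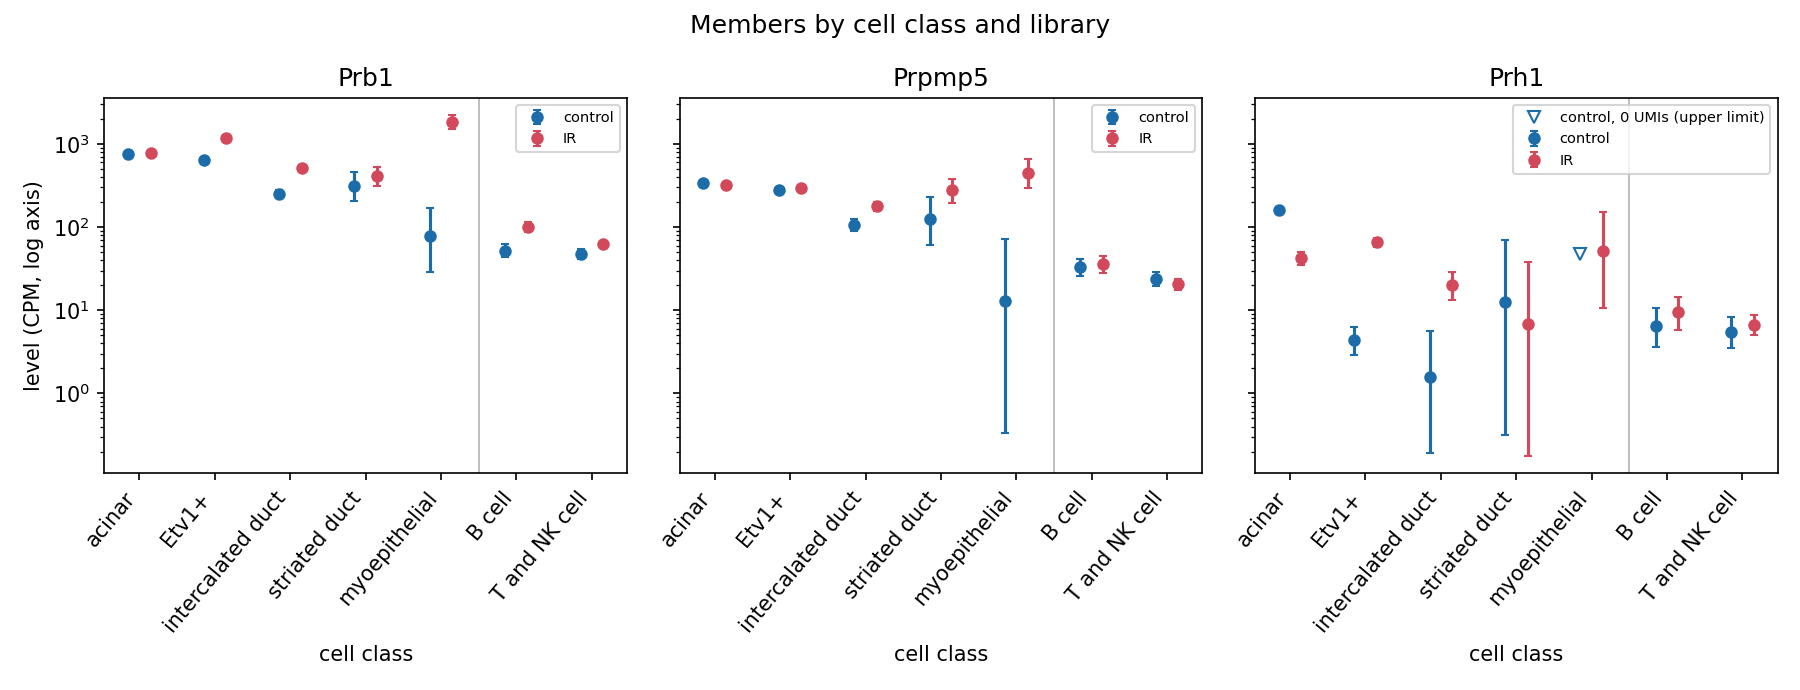
Level of each member in CPM on a log axis (y) by cell class (x), with exact 95% Poisson intervals for control (blue) and IR (red). A hollow triangle is the upper limit of a class with 0 UMIs, and classes right of the line are immune cells. Prb1 and Prpmp5 were highest in acinar and Etv1+ cells, apart from the IR myoepithelial-like group, where 1 cell gave 102 of 106 Prb1 UMIs.

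Prb1 was detected in most secretory cells of both libraries. Its level in the control was 761 CPM in acinar cells (interval 730 to 793), 645 in Etv1+ cells (626 to 665), 314 in striated ducts (203 to 464), 248 in intercalated ducts (221 to 277) and 78.2 in the myoepithelial-like group (28.7 to 170). Immune cells set the background, with 52.1 CPM in B cells (43.2 to 62.2) and 48.1 in T and NK cells (41.7 to 55.3). The 2 duct classes could not be ordered within these intervals, nor could the myoepithelial-like group and the immune classes. In the IR library Prb1 stood at 1185 CPM in Etv1+ cells (1152 to 1219), 784 in acinar cells (750 to 818), 514 in intercalated ducts (476 to 553), 414 in striated ducts (316 to 533) and 101 in B cells (88.3 to 116). Etv1+ cells stood above acinar cells here. The IR myoepithelial-like value of 1839 CPM came down to 105 when its richest cell was left out.

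After thinning each cell to 1000 UMIs, Prb1 was seen in 49.7% of control acinar cells (44.5 to 55.0%) and in 43.8% of IR acinar cells (38.5 to 49.2%). The shares in Etv1+ cells were 45.0% (38.3 to 51.8%) and 46.7% (39.6 to 53.9%), and in B cells 4.98% and 6.89%. Unthinned, the gene had a UMI in 83.6% and 82.8% of acinar cells and in 12.4% and 15.3% of B cells, whose median depths were 2539 and 2181 UMIs. The shares in acinar and Etv1+ cells were well above those in B cells, which were taken as the background.

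Prpmp5, like Prb1 with all cells counted, was higher in acinar than in Etv1+ cells of the control, and higher in both than in ducts. It stood at 341 CPM in acinar cells (320 to 363), 277 in Etv1+ cells (264 to 290), 126 in striated ducts (60.3 to 231), 106 in intercalated ducts (88.7 to 125) and 32.7 in B cells (25.8 to 40.9), with the 2 duct intervals overlapping. The myoepithelial-like group had 1 UMI. The IR values were 318 CPM in acinar cells (297 to 340), 293 in Etv1+ cells (276 to 310), 276 in striated ducts (197 to 376), 177 in intercalated ducts (156 to 201) and 36.0 in B cells (28.4 to 45.1). The intervals of acinar, Etv1+ and striated duct cells overlapped in the IR library. Thinned to 1000 UMIs, 25.97% of control acinar cells (21.5 to 30.8%) and 24.3% of IR acinar cells (19.9 to 29.2%) carried Prpmp5, with 19.5% and 19.3% in Etv1+ cells and 3.04% and 2.71% in B cells.

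Prh1 was distributed differently, since few cells held it. Its control levels were 159 CPM in acinar cells (145 to 174), 4.37 in Etv1+ cells (2.92 to 6.27), 1.58 in intercalated ducts (2 UMIs), 12.6 in striated ducts (1 UMI) and 6.46 in B cells (3.61 to 10.7). A single acinar cell held 451 of the 472 control acinar UMIs (95.6%). Without it the control acinar level was 7.09 CPM (4.39 to 10.8), within the interval of B cells, and the control Etv1+ level lay at or under that of B cells. Apart from that cell, the summed Prh1 levels of these 2 classes were therefore not above background in the control library. Single cells could still stand out, since 1 control Etv1+ cell held 11 of the 29 UMIs of its class. The IR levels were 42.2 CPM in acinar cells (34.7 to 50.7), 65.99 in Etv1+ cells (58.3 to 74.4), 20.04 in intercalated ducts (13.2 to 29.2), 6.91 in striated ducts (1 UMI) and 9.48 in B cells (5.79 to 14.6). In IR intercalated ducts 1 cell held 18 of the 27 UMIs. Without it their level was 6.68 CPM (3.06 to 12.7), within the interval of B cells. In thinned cells Prh1 was seen in 5 of 362 control and 11 of 345 IR acinar cells, in 0 of 220 control Etv1+ cells, which allows a share of up to 1.36% with a UMI at that depth, and in 8 of 197 IR Etv1+ cells (4.06%; 1.77 to 7.84%). The B cell shares were 0.486% and 1.23%.

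Set against the UMIs of 8 serous genes (Amy1, Bpifa2, Pip, Car6, Smr3a, Odam, Prol1 and Lpo), Prpmp5 varied little between acinar, Etv1+ and immune cells. It had 49.4 UMIs per 1e5 serous UMIs in control acinar cells (46.4 to 52.6), 45.5 in Etv1+ cells (43.4 to 47.6), 52.9 in B cells (41.7 to 66.2) and 48.6 in T and NK cells (39.5 to 59.1). Prb1 had 110 per 1e5 in control acinar cells (106 to 115), 106 in Etv1+ cells (103 to 109), 84.2 in B cells (69.9 to 101) and 98.1 in T and NK cells (85.02 to 113). In the IR library the same ratio for Prb1 was 119 in acinar cells (114 to 124), 210 in Etv1+ cells (204 to 216), 166 in B cells (145 to 190) and 140 in T and NK cells (128 to 153). The ratio of Prh1 to serous UMIs went the other way. It was 10.4 per 1e5 in control B cells (5.84 to 17.2) and 11.3 in control T and NK cells (7.16 to 16.9), but 0.718 in control Etv1+ cells (0.481 to 1.03) and 1.03 in control acinar cells without the richest cell (0.635 to 1.57). In the control, the droplets of immune cells thus carried more Prh1 relative to serous RNA than the secretory cells did, with that cell left aside. The source of this RNA was not tested.

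The balance between Prb1 and Prpmp5 was alike in the main secretory classes of the control. Of the UMIs of this pair, Prpmp5 held 30.9% in control acinar cells (29.4 to 32.6%), 30.02% in Etv1+ cells (28.9 to 31.2%) and 29.9% in intercalated ducts (25.7 to 34.4%). It was not the same everywhere, with 32.3% in Etv1+ subcluster 0 (30.6 to 34.0%), 20.96% in the small subcluster 3 (18.2 to 23.9%) and 38.6% in B cells (31.7 to 45.8%). A single cell held 163 of the 660 Prb1 UMIs of control subcluster 3, and its part in that share was not tested. In the IR library its share was 28.8% in acinar cells (27.2 to 30.5%), 25.7% in intercalated ducts (22.9 to 28.6%) and 19.8% in Etv1+ cells (18.8 to 20.8%). The last value leaned on 7 Etv1+ cells rich in the members, described below. Without them 3163 of 4795 Prb1 UMIs and 1069 of 1185 Prpmp5 UMIs were left. Among cells with at least 30 UMIs of the pair, the share of Prpmp5 ran from 3.13 to 65.7% in the 83 control Etv1+ cells, with a median of 30.4%, and from 0.962 to 54.8% in the 54 IR Etv1+ cells, with a median of 23.6%. In acinar cells the medians were 28.9% over 12 control cells and 17.4% over 18 IR cells. The limit of 30 UMIs picks cells by their own count of the pair, so these medians do not describe the classes. Over all acinar cells the shares were 30.9% in the control and 28.8% in IR.

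These counts rest on related genes. Of all 90-base windows of the Prb1 transcript, 9.60% occurred in a transcript of another gene, as did 11.2% of those of Prpmp5 and 6.08% of those of Prh1, and every such gene lay in this cluster. In the last 500 bases, near the end that the 10x chemistry reads, the shares were 2.92%, 4.87% and 0%. With 50-base windows they were 23.1%, 19.7% and 8.87% there. Reads that match several genes are left out of the counts by Cell Ranger, so that molecules of the family can go uncounted, and how many depends on the read length, which is not given in the sources used here.

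The first comparison asks what irradiation left of these genes in acinar cells. Prb1 and Prpmp5 stood close to their control level, with IR over control ratios of 1.03 (0.970 to 1.09) and 0.931 (0.849 to 1.02). Prh1 was lower at 0.265 (0.214 to 0.326), from 472 control and 112 IR UMIs. Among the 1121 genes with at least 100 UMIs over both sums, 15.7% had a ratio at or above 1.5 and 2.05% a ratio at or below 1/1.5. None of the 3 members was among the first and 1, Prh1, was among the second. That ratio rested on 1 control cell. Without the cell with most member UMIs in each library it was 3.41 (2.05 to 5.88), so that its direction turned, while Prb1 moved to 1.17 (1.10 to 1.25) and Prpmp5 to 0.976 (0.888 to 1.07). The median ratio of the 1121 genes over all cells was 1.20, a shift of 0.26 on the log2 scale. With all cells counted, Prb1 and Prpmp5 were thus lower relative to most genes. For Prb1 this leaned on the richest cells, since its interval without them (1.10 to 1.25) held that median. With factors from the trimmed mean of M-values (TMM), again over all cells, Prb1 stood at 0.826 (0.778 to 0.877) and Prpmp5 at 0.747 (0.681 to 0.819).

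The median acinar cell showed little difference for Prb1, with 521 CPM in the control and 500 in IR. The highest control cell reached 89452 CPM and the highest IR cell 13907. For Prpmp5 the median cell had 255 and 199 CPM, and for Prh1 it had 0 in both. The 37 richest control cells and the 36 richest IR cells held 50% of the Prb1 UMIs, but the single richest cell held 385 of 2258 in the control and 116 of 2082 in IR.

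In Etv1+ cells Prb1 was higher in the IR library, Prpmp5 was close to control and Prh1 was higher. The ratios were 1.84 for Prb1 (1.76 to 1.91), 1.06 for Prpmp5 (0.983 to 1.14) and 15.1 for Prh1 (10.3 to 23.0), the last from 29 control and 267 IR UMIs. Of 3154 genes counted, 14.2% had a ratio at or above 1.5 and 1.62% at or below 1/1.5. Of the 3 members, 2 were in the first group, Prb1 and Prh1, and none in the second. With 29 control UMIs, Prh1 could reach the minimum for being counted only with a far higher IR count. Its place in the first group thus followed from that minimum and is no separate result. The Prb1 value leaned on few cells. The richest 12 IR cells held 50% of its UMIs, against 36 control cells. Raw UMIs were ranked for this, so the depth of cells enters these numbers, and for Prpmp5 they were 21 IR and 37 control cells. The median cell had 482 CPM of Prb1 in the control and 549 in IR. Without the 7 IR cells in which the members took at least 0.5% of UMIs the ratio was 1.26 for Prb1 (1.21 to 1.32), 0.995 for Prpmp5 (0.922 to 1.07) and 4.13 for Prh1 (2.65 to 6.61). This limit removed IR cells alone and by the members' own level, so that the ratio of their sum could only come down. The median ratio of all genes counted was 1.17. With TMM factors Prb1 stood at 1.51 over all cells (1.44 to 1.57), and Prpmp5 went below 1, to 0.867 (0.806 to 0.934).

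The Etv1+ cells were not uniform. In control subclusters 0, 1, 2 and 3, Prb1 stood at 554, 442, 667 and 1122 CPM, and in the IR library at 1261, 810, 1182 and 843. Subcluster 3, with 24 control and 26 IR cells, was the exception to the higher IR level. Without its richest Prb1 cell in each library, it stood at 938 CPM (857 to 1024) in the control and 845 (722 to 983) in IR. These intervals overlapped. IR subcluster 0 came down to 923 CPM without a cell that held 618 Prb1 UMIs. Subcluster 1 held shallow cells, so that 38 control and 103 IR UMIs of Prb1 stood behind its values. Prpmp5 varied less in the deeper subclusters 0, 2 and 3, from 264 to 298 CPM in the control and from 291 to 303 in IR.

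**Figure D2:**
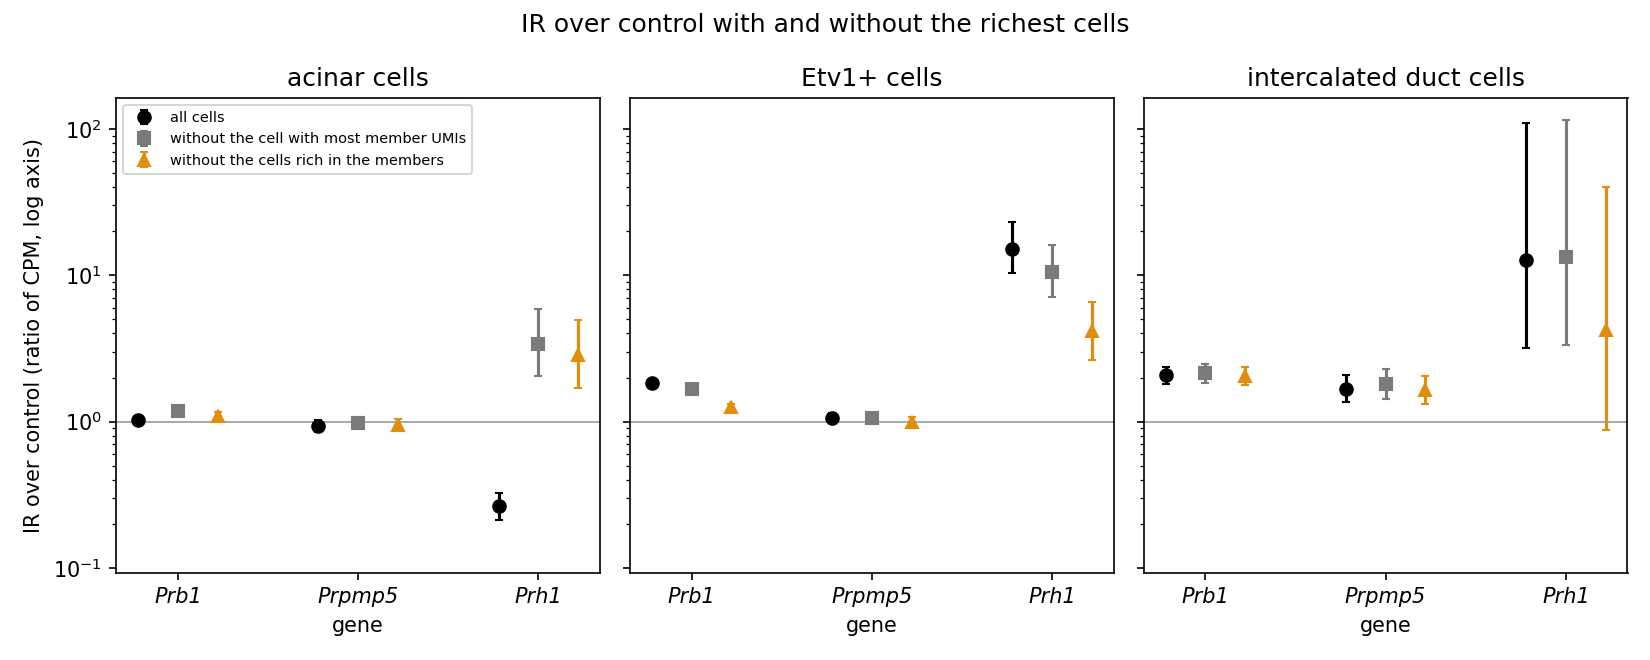
IR over control ratio of CPM (y, log axis) for each member (x) in acinar, Etv1+ and intercalated duct cells, with exact 95% intervals. Circles use all cells, squares leave out the cell with most member UMIs in each library, and triangles leave out the cells with at least 0.5% of UMIs on the members. Prh1 in acinar cells went from 0.265 to 3.41 and 2.85, while Prpmp5 stayed between 0.931 and 1.06 in acinar and Etv1+ cells.

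In intercalated ducts both genes with at least 100 UMIs were higher in the IR library. The ratio was 2.07 for Prb1 (1.81 to 2.37; 314 control and 692 IR UMIs) and 1.68 for Prpmp5 (1.35 to 2.09; 134 and 239 UMIs). The 955 genes counted had 9.21% at or above 1.5 and 8.38% at or below 1/1.5. The ratios were 2.04 and 1.63 without the rich cell. The median control cell of this class had 1700 UMIs and the median IR cell 5251. In the background, Prb1 was also higher in the IR library. Its ratio was 1.95 in B cells (1.55 to 2.45) and 1.30 in T and NK cells (1.10 to 1.54). Prpmp5 had 1.10 (0.790 to 1.53) and 0.863 (0.667 to 1.12) there. Per 1e5 serous UMIs, Prb1 had 65.5 in control intercalated ducts and 139 in IR, beside 84.2 and 166 in B cells. The part of background RNA in the intercalated duct ratios was not tested. In striated ducts Prb1 had 25 control and 60 IR UMIs (ratio 1.32; 0.814 to 2.19) and Prpmp5 had 10 and 40 (2.20; 1.08 to 4.93). Serous RNA moved with the latter, from 22.5% of the striated duct UMIs in the control to 41.9% in IR, and its part in the result was not tested. Neither gene reached 100 UMIs here, so neither was counted among the 212 genes of that comparison. Of these genes, 9.91% were at or above 1.5 and 54.2% at or below 1/1.5. The striated duct-like cells themselves differed between the libraries. Klk1, a marker of this class, had a ratio of 0.209 (0.196 to 0.222). Dcpp1, Dcpp2 and Dcpp3, markers of intercalated ducts, had 5.56, 9.44 and 14.7. The median cell had 723.5 UMIs in the control and 2003.5 in IR. These sums may thus hold unlike cells, which was not tested.

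The second comparison asks how Etv1+ cells differ from acinar cells. In the control library the level of Prb1 in Etv1+ over acinar cells was 0.848 (0.806 to 0.893), that of Prpmp5 0.811 (0.751 to 0.877) and that of Prh1 0.0274 (0.0182 to 0.0399). Of 2371 genes, 42.4% had a ratio at or above 1.5 and 1.01% at or below 1/1.5, where 1 member, Prh1, was found. With 29 Etv1+ UMIs, Prh1 could be counted only with a far higher acinar count, so this place followed from the minimum for counting. Of its 472 acinar UMIs, 451 were in 1 cell, and the 21 left without it were too few for Prh1 to be counted. The median ratio of the 2371 genes was 1.36, a shift of 0.45 on the log2 scale, so that the members stood lower against most genes than the ratios alone show. Without the richest cell of each class Prb1 stood at 0.990 (0.938 to 1.05), Prpmp5 at 0.869 (0.803 to 0.941) and Prh1 at 0.621 (0.342 to 1.15). In the IR library the ratios were 1.51 for Prb1 (1.44 to 1.59), 0.922 for Prpmp5 (0.843 to 1.01) and 1.57 for Prh1 (1.25 to 1.97), and 2 of the 3 members were at or above 1.5, as were 38.5% of 1894 genes, with 1.21% at or below 1/1.5. Without the rich IR cells described below, Prb1 stood at 815 CPM in Etv1+ (787 to 844) and 692 in acinar cells (661 to 725). Prh1 then stood at 18.0 CPM (14.1 to 22.8) and 20.2 CPM (15.1 to 26.4), with overlapping intervals.

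Cells very rich in the members were seen in both libraries. A cell was called rich if at least 0.5% of its UMIs, and at least 10 of them, were on the 3 genes. This limit was set after the values were seen, and the cells next to it had 0.502% and 0.473%. There was 1 such cell among 378 control acinar cells (0.265%; 0.00670 to 1.47%) and 8 among 367 IR acinar cells (2.18%; 0.946 to 4.25%). There were 0 among 249 control Etv1+ cells, which allows up to 1.20%, and 7 among 243 IR Etv1+ cells (2.88%; 1.17 to 5.84%). Ducts and the myoepithelial-like group added 3 IR cells, named by their clusters only. The intercalated duct cell had 1003 UMIs, with 0.798% on Dcpp1 and 11.4% on Amy1, beside 240610 and 26148 CPM in its IR class. The striated duct cell had 15.9% on Amy1, beside 31800 CPM in its IR class. Among immune cells, 1 IR B cell and 1 control T or NK cell also passed the limit. They are not among the 19 epithelial cells described. The intervals of the Etv1+ shares overlapped, and the number of mice behind these cells is not known.

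**Figure D3:**
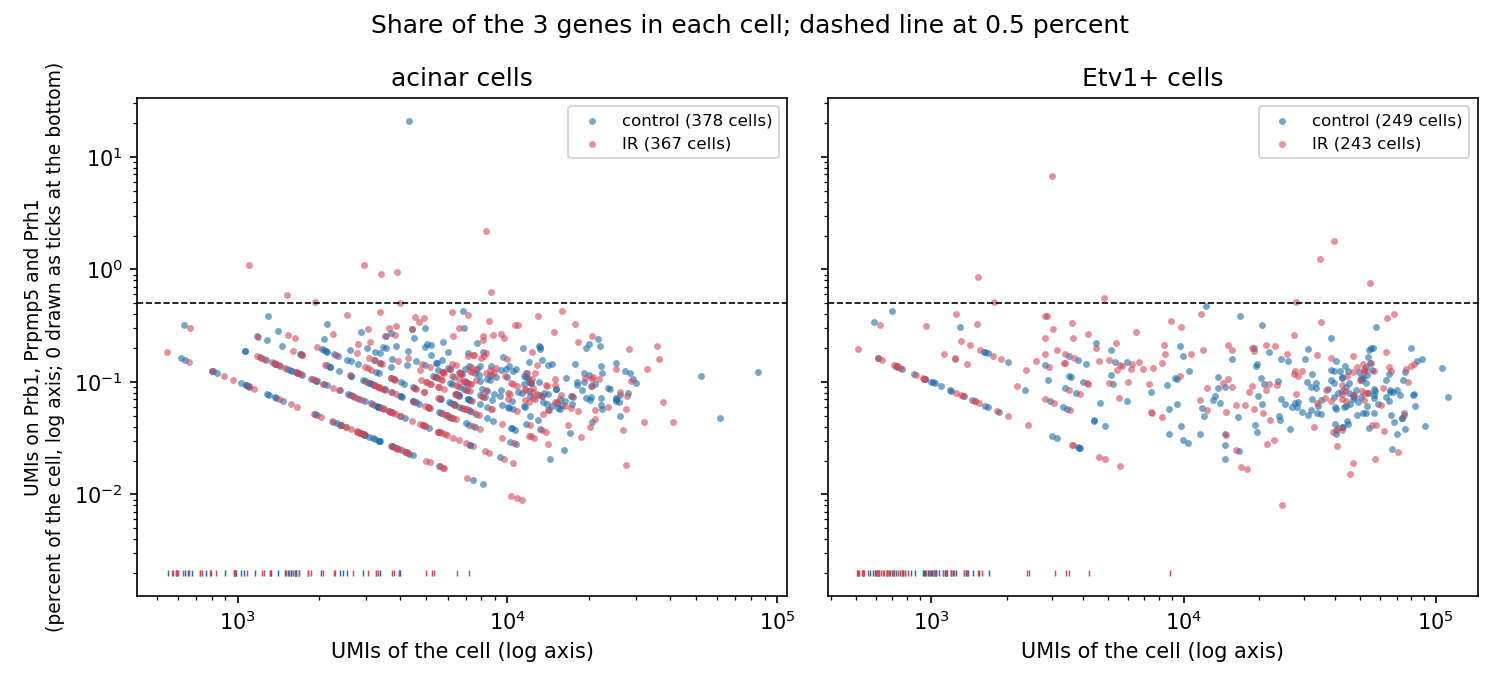
Share of each cell's UMIs on Prb1, Prpmp5 and Prh1 (y, percent, log axis) against the UMIs of the cell (x, log axis) for acinar and Etv1+ cells, with control in blue and IR in red. Ticks at the bottom are cells with 0 UMIs of the 3 genes, and the dashed line marks 0.5%; a few shallow cells above it had under 10 UMIs of the genes. A control acinar cell with 904 of 4304 UMIs on the 3 genes stood highest, followed by an IR Etv1+ cell at 6.71%.

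The control cell had 4304 UMIs, of which 451 were Prh1, 385 Prb1, 68 Prpmp5, 123 Gm8882 and 30 Prp2, so that the members took 904 of its UMIs. It also held 424 Amy1 UMIs, 1.44 times the level in the other control acinar and Etv1+ cells (1.31 to 1.58). Its 1025 Bpifa2 UMIs stood at 0.607 times the level in those cells (0.571 to 0.646). The UMIs on the members lower the CPM of its other genes, and these ratios are not corrected for that. The richest IR cell, a cell of the Etv1+ cluster with 3009 UMIs, had 109 Prb1, 87 Prh1 and 6 Prpmp5 UMIs (6.71%). It held no Etv1 UMI itself, so that Etv1+ names its cluster only. A deeper IR cell of that cluster, with 39594 UMIs, had 618 Prb1, 81 Prh1, 6 Prpmp5 and 92 A630073D07Rik UMIs. Etv1 took 0.00253% of its UMIs, beside 200 CPM in the IR class. A rich cell of that cluster with 27984 UMIs held no Etv1, while Etv1 took 0.0127% of another with 54943 UMIs. Prh1 was present in 12 of the 18 rich IR cells and absent from others rich in Prb1, such as a cell of 54943 UMIs with 376 Prb1, 44 Prpmp5 and 0 Prh1. The rich cells therefore differed in which genes of the cluster they held. None of these 19 was among the 6% highest doublet scores, and the highest mitochondrial share among them was 2.82%. The lowest was 0.0256%, in an IR acinar cell, beside a median of 0.236% for that class. Their gene numbers ran from 252 to 3277, with 368 in the richest IR cell and 547 in the control cell. Whether the gene-poor ones were whole cells was not tested. The median rich IR cell had 3948.5 UMIs, against 4459 in the other IR epithelial cells.

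**Figure D4:**
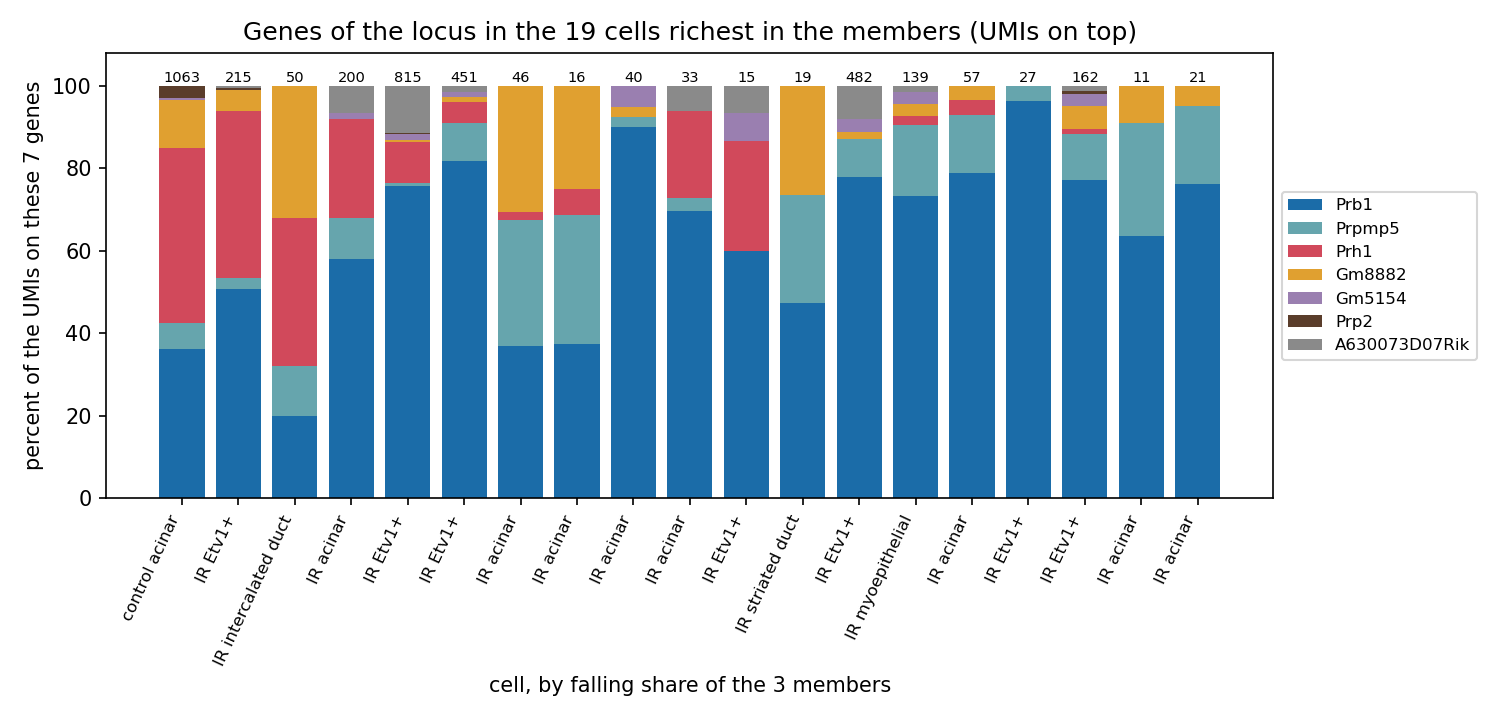
Share of each gene (y, percent) in the UMIs on 7 genes of the locus for the 19 rich cells (x, in order of falling member share), with the number of UMIs on top of each bar. Prh1 held a large part in the control cell and in the first IR cells, Prb1 in most others, and Gm8882 in a few.

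The rest of the RNA of the rich IR acinar and Etv1+ cells differed from the other such cells in several secretory genes, named after their values were seen. Smr3a, a serous gene that encodes a submaxillary gland androgen-regulated protein, stood at 3828 CPM in the 15 rich cells and 63555 CPM in the others (ratio 0.0602; 0.0560 to 0.0646). Other serous genes did not share this, with ratios of 1.08 for Amy1, 1.25 for Pip (0.827 without its richest cell), 1.17 for Car6, 2.20 for Odam, 0.880 for Bpifa2 and 0.666 for Lpo, while Prol1 had 0.179 from 14 UMIs. The summed Smr3a value leaned on deep cells, such as an Etv1+ cell of 54943 UMIs where Smr3a took 0.0127%. Shallower rich cells were low too, such as an Etv1+ cell of 3009 UMIs (0.366%) and an acinar cell of 3987 UMIs (0.150%). Not every rich IR cell was low, since Smr3a took 10.7% in an acinar cell of 1100 UMIs. It took 6.01% in an Etv1+ cell of 1531 UMIs. Dcpp1, a secreted protein of intercalated ducts, was lower at 0.222 (0.185 to 0.266). Scgb1b27 and Scgb2b27, secretoglobins of the androgen-binding protein family, were 8.49 (8.19 to 8.80) and 4.76 (4.57 to 4.96) times as high, with UMIs in 9 of the 15 cells each. A single cell held 2364 of the 3819 Scgb1b27 UMIs and 1459 of the 2583 Scgb2b27 UMIs, and the ratios were 4.03 and 2.58 without the richest cell of each gene. Mucl2 was 84.7 times as high, but 551 of its 563 UMIs were in a single cell. In the rich control cell Smr3a stood at 0.848 (0.769 to 0.932) of the level in other cells, a far smaller difference than in the sum of the rich IR cells. The members took 904 of the 4304 UMIs of that control cell, which lowers the CPM of its other genes, so the value does not show that Smr3a was reduced there.

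The members differed in how unevenly they were spread over cells. An index of dispersion was taken as the mean squared departure from the count expected by depth, over that expected count, which is near 1 where counting error is all there is. In control acinar cells it was 787 for Prh1, the highest of 549 genes, 120 for Prb1 (place 5) and 9.17 for Prpmp5 (place 35), with a median over genes of 1.29, and these places rest on the 1 rich cell. In IR acinar cells it was 20.1 for Prh1 (place 24 of 595), 12.3 for Prb1 (place 32) and 2.68 for Prpmp5 (place 123). In control Etv1+ cells Prb1 took place 93 of 1872 (9.80) and Prpmp5 place 609 (2.04, beside a median of 1.51). In IR Etv1+ cells Prh1 took place 12 of 1353, Prb1 place 21 and Prpmp5 place 255. Prpmp5 was the most even of the members ranked in each of these sums.

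The cluster on chromosome 6 holds more proline-rich genes. Of 55 annotated genes from 500 kb before the first member to 500 kb after the last, 46 had no UMI in the kept cells, among them all 22 taste receptor genes, and 8 had at least 20. Gm8882, the next protein-coding gene after Prpmp5, had 443 control acinar UMIs (149 CPM; 136 to 164) and 272 in IR (102; 90.6 to 115), a ratio of 0.686 (0.587 to 0.799). Without the richest cell of that gene in each library it had 108 and 97.2 CPM. Prp2, with the same 96 bases before its start as Prh1, had 38 UMIs in all kept cells of both libraries, against 1038 of Prh1, and 30 of the 38 were in the control cell rich in Prh1. A630073D07Rik, a protein-coding gene at the far end of the cluster, had 62 control and 87 IR acinar UMIs (ratio 1.57; 1.12 to 2.21) and 156 and 239 in Etv1+ cells (2.52; 2.05 to 3.10), and 92 of the last were in the deep rich cell. Gm5154 and Prb3-ps are annotated as pseudogenes and had 448 and 26 UMIs.

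**Figure D5:**
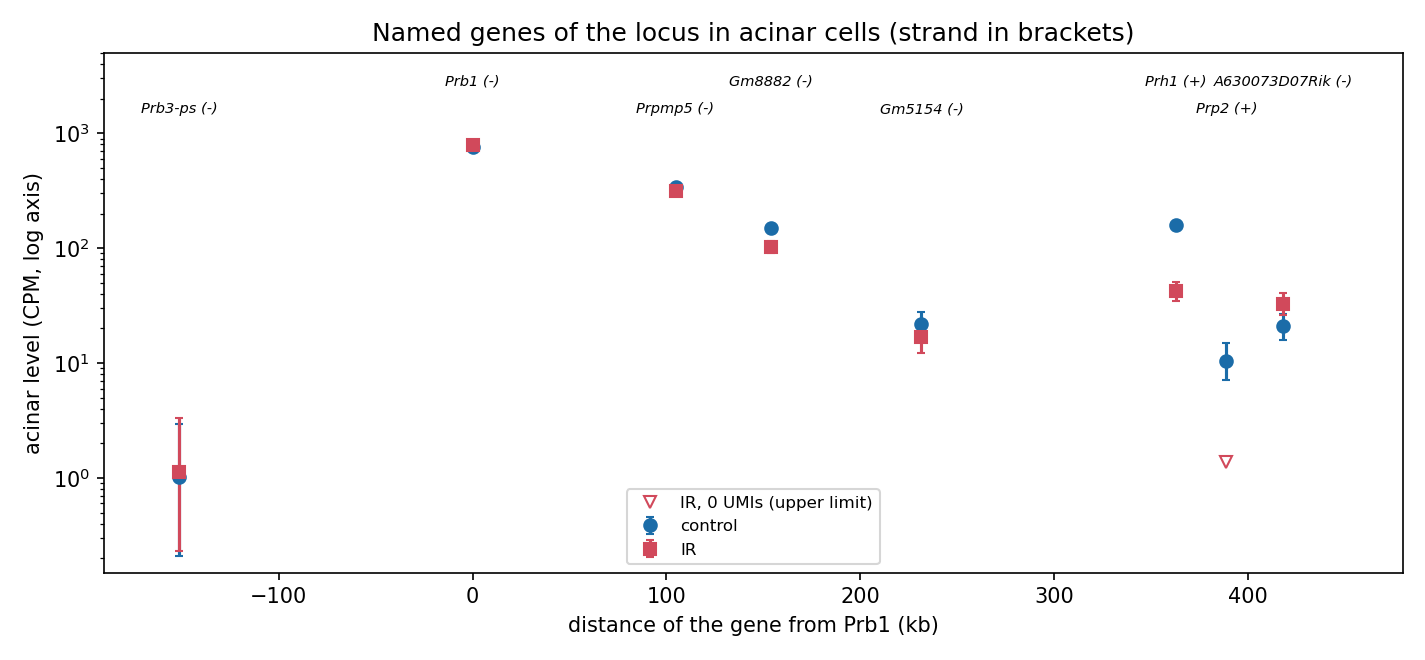
Level in acinar cells (y, CPM, log axis) of the 8 genes of the locus with at least 20 UMIs, by distance from Prb1 (x, kb), with exact 95% Poisson intervals for control (blue) and IR (red). The hollow triangle is the upper limit for Prp2, with 0 IR UMIs. Prb1, Prpmp5, Gm8882 and Gm5154, which stand in this order on the minus strand, had falling levels, from 761 to 21.9 CPM in the control. Distance alone did not order the minus-strand genes. Prb3-ps, on the other side of Prb1, had 1.01 CPM in the control. A630073D07Rik, the farthest, had 20.9 CPM in the control and 32.7 in IR, where Gm5154 had 16.9.

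Other genes of the secretory programme are given as lists. In acinar cells the 8 serous genes had a median IR over control ratio of 0.967, with 1 above (Odam, 3.04) and 2 below the limits (Smr3a, 0.527, and Car6, the secreted carbonic anhydrase, 0.637), beside a median of 1.20 for all genes counted. In Etv1+ cells their median was 0.977, with the same 3 genes past the limits. Of the duct secretory list (Dcpp1, Dcpp2, Dcpp3, Klk1 and Wfdc18), 3 were counted in acinar cells, 1 above and 2 below, and 5 in Etv1+ cells, 3 of them above, led by Dcpp1 (2.90; 2.83 to 2.98). Bhlha15, a factor that drives the secretory architecture of acinar cells, had a ratio of 0.957 in acinar cells (0.637 to 1.43) and 0.909 in Etv1+ cells (0.765 to 1.08), and the water channel Aqp5 had 1.08 (0.966 to 1.22) and 1.07 (0.992 to 1.16). None of the 7 genes counted of the machinery for translocation and folding in the endoplasmic reticulum was past a limit in acinar cells. In Etv1+ cells 1 of 7 was above, the chaperone Hspa5 (1.53; 1.40 to 1.67). Of all genes counted, 15.7% in acinar and 14.2% in Etv1+ cells were at or above 1.5. At or below 1/1.5 were 2.05% and 1.62%. The counts for the machinery list were near these shares.

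Genes that supply and charge proline were looked at because the members need it. In acinar cells Pycr1, which makes proline, had a ratio of IR over control of 1.32 (0.908 to 1.91), and Eprs, which loads it on its tRNA, had 1.14 (0.767 to 1.69). In Etv1+ cells Aldh18a1, the first enzyme of proline synthesis, was above the limit at 1.54 (1.18 to 1.99), while Eprs had 1.22 (1.07 to 1.39) and Pycr1 0.870 (0.688 to 1.10). Between classes of the control, these 3 genes were higher in Etv1+ than in acinar cells, at 1.73 for Pycr1 (1.28 to 2.36), 1.92 for Aldh18a1 (1.28 to 2.99) and 4.37 for Eprs (3.30 to 5.90), beside a median of 1.36 for all genes. Over all cells Prb1 and Prpmp5 were lower there, but Prb1 stood at 0.990 (0.938 to 1.05) without the richest cells. P4ha1, Slc6a20a and Slc36a1 had too few UMIs to be counted, for example 18 control and 8 IR UMIs of P4ha1 in Etv1+ cells.

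Over the 10 sums of 5 epithelial classes and 2 libraries, the genes most like Prb1 in log2(CPM + 1) among 2795 were Prpmp5 (Pearson r 0.93), Chia1 (0.91), Copz2 (0.89), Agt (0.88) and Gm5154 (0.88). Those most like Prpmp5 were Copz2 (0.94), Prb1 (0.93), A630073D07Rik (0.93), Chia1 (0.91) and Kcnn4 (0.90). For Prh1 the highest were Prb1 (0.84), Agt (0.78), Prpmp5 (0.78), Chia1 (0.75) and A630073D07Rik (0.73). The sums share their libraries and their free serous RNA, and single cells weigh on several of them, so these values describe the pattern only.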

How the data were processed

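Parotid cells of control and IR mice gave 1 library each. Cell Ranger 3.0.1, run by the authors against mm10, produced the deposited values, which are unnormalized UMI counts. The libraries held 22707876 (control) and 23890757 (IR) UMIs.

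Kept cells had 200 genes or more and no more than 5% mitochondrial UMIs. The pair of libraries was integrated in Seurat 5.3.0 (R 4.3.3), and clusters were formed there (2000 variable genes, 30 components, resolution 0.3, ducts at 0.4, Etv1+ and myoepithelial-like cells clustered again at 0.8), with all 55 genes of the locus left out because no protein table was used to tell which are proline-rich. Clusters were named from marker lists. Doublets were scored with Scrublet in scanpy 1.11.5 and kept. UMIs were summed per class, and ratios have exact conditional binomial, levels exact Poisson and shares Clopper-Pearson intervals (scipy 1.17.1). PCR and droplet effects are outside them. A limit for a share of 0 is 3 over the number of cells. Thinning to 1000 UMIs left out 360 control and 492 IR cells. On simulated counts with 200 genes changed 3-fold, all 200 directions were recovered in acinar IR over control, and 95.7% of 1099 intervals held the true ratio. These were Poisson counts drawn from the summed profile, the model that the intervals assume. They check the calculation only and hold no uneven spread over cells.

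Members and lists were chosen with earlier results of these data known. Named genes are the members, genes of the locus with at least 20 UMIs, the lists given, and the 5 most alike by correlation among genes with at least 200 UMIs, apart from those said to be named after their values were seen. Alternatives are given at the end (TMM by edgeR 4.0.16). A gene of the proline list is not reported here, so no counts are given for that list.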

Additional observations from a re-analysis of the deposited data

Results flagged for a closer look

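Prh1 went in opposite directions in the 2 secretory classes, with an IR over control ratio of 0.265 in acinar cells and 15.1 in Etv1+ cells. The difference between these was not tested, since each condition has 1 library. Without the cell with most member UMIs in each sum the ratios were 3.41 and 10.5, both above 1, so the opposite direction rested on 1 control acinar cell.

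Signal was also seen in data the comparisons leave out. In the barcodes with under 200 genes (912 control and 649 IR), Prb1 stood at 119 CPM in the control and 255 CPM in the IR library, a ratio of 2.15 (1.76 to 2.62), while Prpmp5 had 0.919 (0.624 to 1.34). Prpmp5 held 32.0% of the UMIs of the pair in these control barcodes (26.7 to 37.8%) and 16.8% in the IR ones (12.4 to 21.95%).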

How the results depend on the processing

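No paired analysis was possible because each condition has 1 library. Of 90 member ratios under an alternative, 57 stayed within the counting interval of the reported ratio and 9 lay on the other side of 1. Of these 9, 3 were ratios whose interval had excluded 1, and the others were Prb1 in acinar and Prpmp5 in Etv1+ cells between IR and control, whose intervals held 1. Leaving out cells, and every alternative for Etv1+ cells between IR and control, was chosen after seeing the data. In acinar cells between IR and control, Prb1 stood at 0.940 with abundant genes left out of the total, 0.826 with TMM, 0.941 as a mean over cells, 1.11 with the locus genes used in clustering, 1.17 without the richest cells and 1.10 without all rich cells. Prpmp5 stood at 0.747 with TMM. Prh1 stood at 0.213 with TMM, 0.135 as a mean over cells and 0.501 with the locus genes used in clustering, and turned to 3.41 and 2.85 without the richest and without all rich cells. For Etv1+ over acinar control cells, the values without abundant genes, with TMM and as a mean over cells were 0.686, 0.547 and 0.706 for Prb1 and 0.657, 0.524 and 0.647 for Prpmp5. Prb1 was 0.990 without the richest cells and turned to 1.02 without rich cells, and Prh1 was 0.0177 with TMM, 0.621 without the richest cells and 0.616 without rich cells. In Etv1+ cells between IR and control, Prb1 stood at 1.66 without abundant genes, 1.51 with TMM, 1.73 as a mean over cells, 1.66 without the richest cells and 1.26 without rich cells. Prpmp5 stood at 0.955 without abundant genes and 0.867 with TMM, and Prh1 at 28.6 as a mean over cells, 9.91 with at least 500 genes per cell and 4.13 without rich cells. The cause of these moves was not tested, apart from the cells left out.

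Counts of genes past the limits depended on depth. With a minimum of 20 UMIs, 1 UMI in each sum, or a fold of 2, genes above the limit numbered 1103, 3175 and 38 in acinar cells between IR and control, and 1758, 3990 and 59 in Etv1+ cells. Genes below it numbered 187, 1285 and 5, and 422, 1246 and 4. For Etv1+ over acinar control cells 4053 and 5617 were above with the lower minimums, and 173, 981 and 9 were below. Outside the rich cells, acinar Prh1 rests on 21 UMIs (control) and 53 (IR), and Etv1+ Prh1 on 29 and 70.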

Other observations

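In the barcodes left out for mitochondrial RNA (1260 control and 1858 IR), Prb1 stood at 315 CPM (control) and 305 CPM (IR), Prpmp5 at 111 and 83.8, and Prh1 at 12.4 and 11.8. Prpmp5 held 26.02% (23.1 to 29.1%) and 21.6% (19.1 to 24.2%) of the UMIs of Prb1 and Prpmp5 in them. Over all kept cells its share was 30.5% in the control (29.7 to 31.4%) and 23.4% in the IR library (22.6 to 24.2%).

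In the IR library 1 B cell held 38 of the 214 Prb1 UMIs of its class. Without it Prb1 in B cells stood at 83.6 CPM, against 50.8 CPM among control B cells without their richest cell (ratio 1.64; 1.29 to 2.09).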
